A study of Homo sapiens with 22 samples.

Results

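The mitochondrially encoded genes are the 37 genes of the mitochondrial DNA, taken here as every gene whose symbol starts with MT-. They comprise 13 mRNAs, 2 rRNAs and 22 tRNAs, out of 59076 gene names in the SMYD3 siRNA table. The knockout table lists 17400 gene names and 15 of the 37 genes: the 13 mRNAs and 2 rRNAs, and no tRNA. The RNA came from HN-6 cells, an established human line from a head and neck squamous carcinoma, and the study asked how loss of the lysine methyltransferase SMYD3 changes gene expression under interferon. In the knockout comparison, 3 libraries of SMYD3 KO 5-3, the single SMYD3 knockout line made from HN-6, were set against 3 libraries of parental HN-6. In the siRNA comparison, 3 libraries of HN-6 transfected for 72 h with 1 siRNA against SMYD3 (si1SMYD3) were set against 3 libraries with a control siRNA (siNC). By the treatment protocol, every culture in both comparisons received human interferon-β at 1000 U/ml for 24 h before collection, so there was no interferon-free baseline. The labels call the replicates biological, and p-values measure the spread between these cultures, except where a limit is stated below. With 1 knockout line, what belongs to that line and what belongs to SMYD3 loss cannot be told apart.

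Mitochondrial DNA is transcribed from both strands into long precursors. Most mRNAs and rRNAs are flanked by tRNAs, whose excision releases them, and the mitochondrial poly(A) polymerase then adds A tails. For several mRNAs that tail also completes a stop codon that the DNA encodes only in part. The mRNAs encode core subunits of respiratory complexes I, III and IV and of the ATP synthase (complex V), while the rRNAs and tRNAs serve the mitochondrial ribosome. All other subunits, and the enzymes of mitochondrial transcription and RNA processing, are encoded in the nucleus.

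The sequences below show how tightly the genes are packed, since neighbouring genes share reads or a boundary. They are the GRCh38 sequence with GENCODE release 29 gene models, written 5′ to 3′ on the coding strand of the gene. By these models 12 of the 13 mRNAs lie on the plus strand and MT-ND6 on the minus strand. Of the 13, 7 end in a complete stop codon and 6 in an incomplete one. The first pair shows the end of MT-ND2 joined to the start of MT-TW (tRNA for tryptophan, chrM:5487-5535, plus strand) and the end of MT-CYB joined to the start of MT-TT (tRNA for threonine, chrM:15863-15911, plus strand). The capital T is the last base of the mRNA, the only encoded base of its stop codon, and the tRNA begins at the next base.
MT-ND2/MT-TW: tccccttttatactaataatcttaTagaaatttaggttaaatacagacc
MT-CYB/MT-TT: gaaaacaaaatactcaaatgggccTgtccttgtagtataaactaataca

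Both tRNAs are described in full because they changed in the siRNA comparison, together with MT-TA (tRNA for alanine, chrM:5587-5655, minus strand). MT-TW lies at chrM:5512-5579 and MT-TT at chrM:15888-15953.
MT-TW: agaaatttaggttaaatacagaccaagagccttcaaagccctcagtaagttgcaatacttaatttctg
MT-TT: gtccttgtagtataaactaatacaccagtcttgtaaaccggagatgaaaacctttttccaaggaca
MT-TA: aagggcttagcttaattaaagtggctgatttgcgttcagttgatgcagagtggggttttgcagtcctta

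Genes that share a bicistronic mRNA overlap at each of the following sites, and capitals mark the shared bases. MT-ATP8 and MT-ATP6 share 46 bases (chrM:8527-8572), and MT-ND4L and MT-ND4 share 7 bases (chrM:10760-10766, shown within chrM:10748-10778). A read inside a shared stretch, or spanning it, cannot be given to one gene only.
MT-ATP8/MT-ATP6: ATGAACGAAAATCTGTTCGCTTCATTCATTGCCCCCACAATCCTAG
MT-ND4L/MT-ND4: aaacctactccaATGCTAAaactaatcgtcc

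MT-ND5 (plus strand, end at chrM:14122-14148) and MT-ND6 (minus strand, end at chrM:14149-14175) meet end to end, and capitals mark the stop codon. The kit marks strand, but whether the counting used it is not given in the sources used here, so reads of MT-ND6 and of the 8 minus-strand tRNAs cannot be told apart from reads of the opposite strand there.
MT-ND5: atcctaaccctactcctaatcacaTAA
MT-ND6: gtaattgagattgctcgggggaatAGG

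SMYD3 itself was lower in every treated library. It had 3.18, 2.58 and 2.16 counts per 1000000 reads in genes (CPM) in the knockout line, against 11.0, 10.0 and 10.2 CPM in parental cells (log2 fold change -1.79 ± 0.131 SE, limma adjusted p = 5.1e-09). Cells with the SMYD3 siRNA had 2.58, 2.79 and 2.79 CPM, against 17.6, 13.8 and 16.02 CPM with the control siRNA (log2 fold change -2.41 ± 0.118 SE, edgeR adjusted p = 3.73e-09). The knockout libraries held 24783605 to 47702859 reads in genes, and the siRNA libraries 32441991 to 54121262. All 10 epithelial markers had reads in every group. They summed to 9995 to 10350 CPM in the knockout line and 8400 to 8754 CPM in parental cells, and to 5359 to 5932 CPM with the SMYD3 siRNA and 7433 to 8041 CPM with the control siRNA. Of 10 leukocyte markers, 4 were listed in the knockout table, with a summed level of 291 to 310 CPM in the knockout line and 47.7 to 51.2 CPM in parental cells. CD68, a lysosomal protein that macrophages express strongly, made up 288 to 306 CPM of that sum in the knockout line and 42.7 to 44.45 CPM in parental cells. Of the 4, CD68 and ITGAM were higher and CD14 and LYZ lower in the knockout line (log2 fold changes 2.98, 0.52, -2.92 and -2.11 by limma). PTPRC, the leukocyte common antigen, was not among the genes listed there. In the siRNA table the leukocyte markers summed to 16.4 to 18.2 CPM with the SMYD3 siRNA and 15.6 to 17.8 CPM with the control siRNA, with MS4A1 and NKG7 at 0 reads. The 4 fibroblast markers listed in the knockout table summed to at most 17.8 CPM in the knockout line and at most 67.9 CPM in parental cells. The 9 fibroblast markers summed to 220 to 247 CPM with the SMYD3 siRNA, against 144 to 165 CPM with the control siRNA. Endothelial markers summed to 1.03 to 1.78 CPM in the knockout line and 4.80 to 5.89 CPM in parental cells. They summed to 7.24 to 7.80 CPM with the SMYD3 siRNA and 13.8 to 16.3 CPM with the control siRNA. The part of these markers in the results below was not tested.

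Mitochondrial RNA took a smaller share of the reads in the knockout line. It made up 4.88%, 4.82% and 4.83% of all reads in the knockout line, against 15.7%, 15.2% and 14.9% in parental cells. The groups did not overlap, and the libraries of the knockout line agreed to within an SD of 0.0345 percentage points. The means were 4.84 ± 0.0345% and 15.3 ± 0.402% (SD, n = 3 each), a difference of -10.45 percentage points (exact two-sided permutation p = 0.1, the smallest that 3 against 3 can give). The share in the parental cells was 3.16 times that in the knockout line. A share of reads depends on all other reads as well, so it does not give the amount of mitochondrial RNA per cell. In bulk RNA, fewer mitochondria or mitochondrial genomes per cell and less RNA from each cannot be told apart either.

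The fall covered both classes of transcript in that table. The mRNAs took 4.297 ± 0.0301% of reads in the knockout line and 13.5 ± 0.406% in parental cells, and the rRNAs took 0.548 ± 0.00644% and 1.83 ± 0.0112% (SD, n = 3 each; exact permutation p = 0.1 for both). By complex, the 7 complex I mRNAs took 1.53 ± 0.0166% in the knockout line and 4.63 ± 0.165% in parental cells. The 3 complex IV mRNAs, which hold the largest part, took 2.33 ± 0.0107% in the knockout line and 7.41 ± 0.165% in parental cells. MT-CYB, the only complex III mRNA of the mitochondrial DNA, took 0.217 ± 0.00132% and 0.761 ± 0.0394%. The 2 complex V mRNAs took 0.220 ± 0.00262% and 0.664 ± 0.0374% (SD, n = 3 each).

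**Figure D1:**
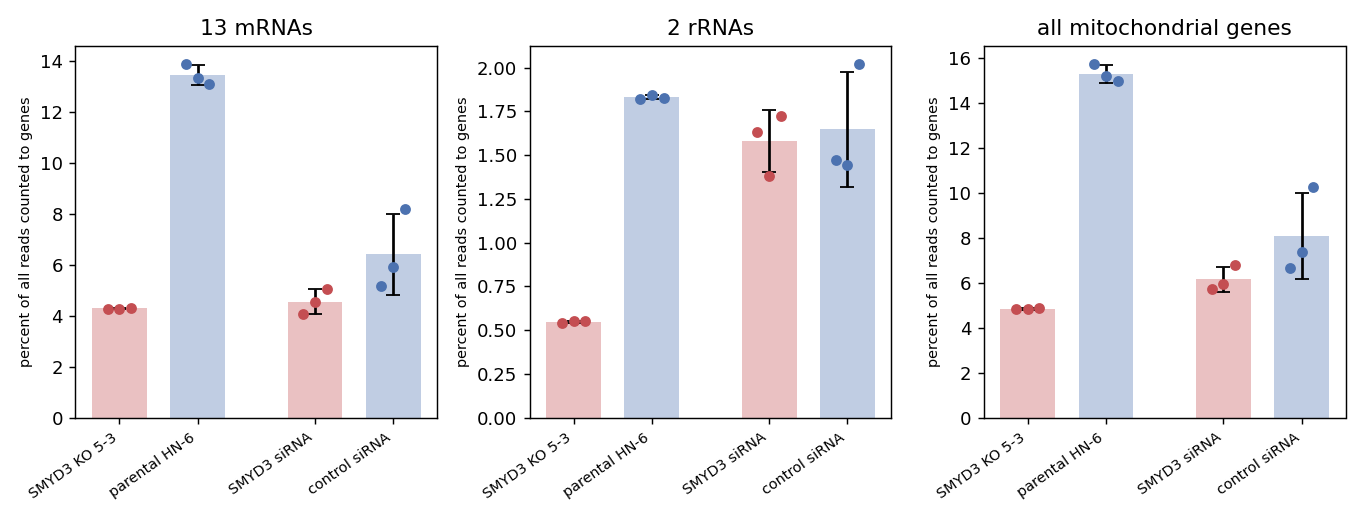
Share of all reads counted to genes (percent, linear axis from 0) held by the 13 mRNAs, the 2 rRNAs and all mitochondrial genes. Bars are means, error bars are SD and points are the 3 libraries of each group; the knockout line lies below parental cells in each panel, while the siRNA groups overlap for the rRNAs and for all genes.

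Between genes, levels were compared as RPKM, the CPM divided by the length of the gene in kilobases. MT-CO1, the catalytic subunit of complex IV, had 8325, 8510 and 8327 RPKM in the knockout line, against 29436, 28560 and 28533 RPKM in parental cells. MT-CO2, another complex IV core subunit, had 8654, 8271 and 8337 RPKM in the knockout line, against 25769, 25340 and 24800 RPKM in parental cells. The ranges of MT-CO1 and MT-CO2 overlapped in the knockout line and were apart in parental cells. MT-ND6, whose mRNA is known to lack a poly(A) tail in human cells, was the lowest of the 15, with 308, 313 and 311 RPKM in the knockout line and 759, 838 and 948 RPKM in parental cells. The libraries were poly(A)-selected, so the capture of an RNA and its abundance cannot be told apart, least of all for rRNAs, tRNAs and MT-ND6.

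On the normalized level, all 15 genes were lower in the knockout line and none was higher by limma on log2(deposited value + 1) with an adjusted p below 0.05, and edgeR and DESeq2 on the recovered reads gave the same counts. By the same rule 42.5% of all genes tested were lower and 42.1% higher, so single calls were common in this comparison. The median log2 fold change was -1.39 over the 15 genes and -0.02 over the 16950 genes tested. By share of reads, every library of the knockout line lay below every parental library for all 15 genes, as it did for 50.5% of the genes tested, while 35.3% of genes lay above. The median of all genes moved by -0.37 when the reads were scaled to the nuclear total, and the median of the 15 genes minus that of all genes was -1.37 in both scalings. In the knockout comparison, fold changes of the normalized level are on the authors' deposited normalization, whereas CPM and RPKM are per total reads. For the 15 genes such a fold change is therefore smaller in size than the ratio of the RPKM values beside it. Scaled to the nuclear total, the log2 fold changes of the 15 genes ran from -2.65 to -1.10.

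The size of the fall differed between the genes of complex I. MT-ND5 had 572, 570 and 558 RPKM in the knockout line, against 3288, 2998 and 3217 RPKM in parental cells (log2 fold change -2.29 ± 0.0336 SE, limma adjusted p = 1.84e-16). MT-ND3 had 1011, 984 and 1032 RPKM in the knockout line, against 5075, 4896 and 4504 RPKM in parental cells (log2 fold change -2.06 ± 0.0411 SE, limma adjusted p = 3.39e-15). These were the 2 lowest fold changes of the 15. MT-ND1 had 2708, 2600 and 2656 RPKM in the knockout line, against 6107, 5788 and 5775 RPKM in parental cells (log2 fold change -0.95 ± 0.0296 SE, limma adjusted p = 2.11e-13). MT-ND2 fell by 1.22, MT-ND4 by 1.37, MT-ND4L by 1.66 and MT-ND6 by 1.25 on the log2 scale.

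Outside complex I, the mRNAs lay closer together. MT-CO1 fell by 1.58, MT-CO2 by 1.39 and MT-CO3 by 1.22 on the log2 scale, MT-CYB by 1.61, MT-ATP8 by 1.44 and MT-ATP6 by 1.39. The rRNAs lay further apart. MT-RNR1, the rRNA of the small ribosomal subunit, had 868.5, 847 and 884 RPKM in the knockout line, against 1638, 1698 and 1622 RPKM in parental cells (log2 fold change -0.73 ± 0.0291 SE, limma adjusted p = 3.21e-12). MT-RNR2, the rRNA of the large subunit, had 3018, 2951 and 2987 RPKM in the knockout line, against 10693, 10792 and 10728 RPKM in parental cells (log2 fold change -1.65 ± 0.0217 SE, limma adjusted p = 6.19e-17). MT-RNR1 had the smallest fall of the 15 genes. The ratio of MT-RNR2 to MT-RNR1 reads was 5.68, 5.69 and 5.52 in the knockout line and 10.7, 10.4 and 10.8 in parental cells, with no overlap (exact permutation p = 0.1).

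**Figure D2:**
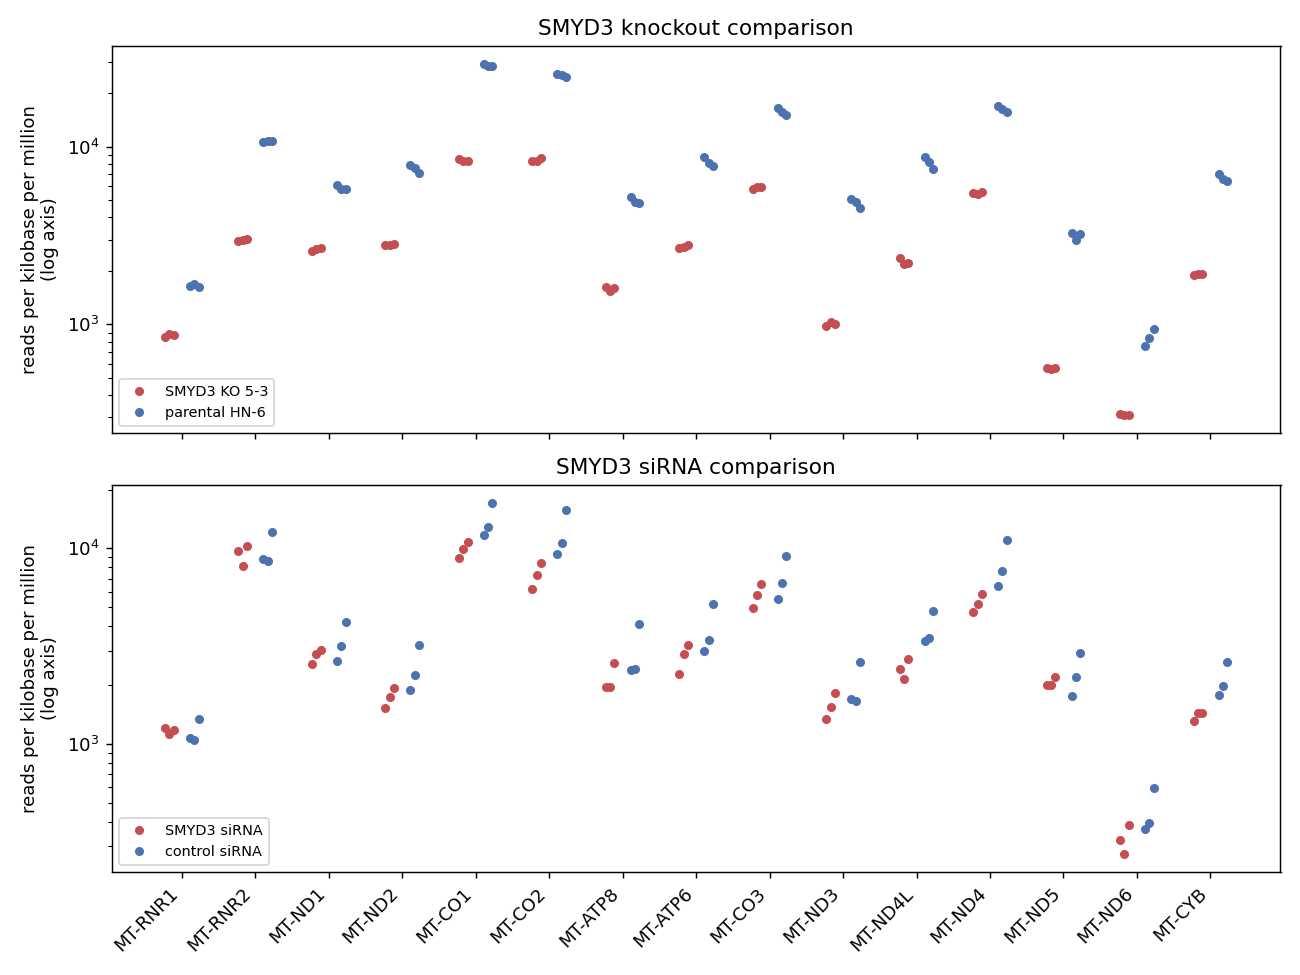
Level of each rRNA and mRNA in every library, in RPKM on a log axis, with the genes in map order. In the knockout comparison the points of the knockout line lie below those of parental cells for all 15 genes; in the siRNA comparison most groups overlap, and the highest control point for all 15 genes is siNC replicate 3.

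Dividing each gene by the mitochondrial total of its library shows which genes departed from the common fall. Each gene is part of that total, so a large member moves the others. In the same limma test on this scale, 8 genes were higher in the knockout line and 6 lower, beside 78.9% of all genes higher and 9.42% lower. Most nuclear genes are higher on this scale because the divisor was smaller in the knockout line. MT-RNR1 rose most, to 1.70%, 1.68% and 1.75% of mitochondrial reads in the knockout line, against 0.993%, 1.07% and 1.04% in parental cells (log2 fold change 0.73 ± 0.0368 SE, limma adjusted p = 4.35e-15). MT-ND1 rose by 0.51, MT-ND2 by 0.25, MT-CO3 by 0.24, MT-ND6 by 0.22, MT-ND4 by 0.09, MT-ATP6 by 0.07 and MT-CO2 by 0.07. The calls of MT-ND6, MT-ATP6 and MT-CO2 were lost in several of the other fits. All 3 were lost with DESeq2 and without replicate 1 of the knockout line, with adjusted p between 0.0638 and 0.13.

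MT-ND5 fell most on this scale, to 2.12%, 2.14% and 2.10% of mitochondrial reads in the knockout line, against 3.79%, 3.57% and 3.90% in parental cells (log2 fold change -0.82 ± 0.0343 SE, limma adjusted p = 9.2e-17). MT-ND3 fell to 0.716%, 0.706% and 0.740% in the knockout line, against 1.12%, 1.11% and 1.04% in parental cells (log2 fold change -0.60 ± 0.0392 SE, limma adjusted p = 7.46e-13). MT-ND4L fell by 0.20, MT-RNR2 by 0.19, MT-CYB by 0.15 and MT-CO1 by 0.12 on the log2 scale. MT-ATP8 was not called (log2 fold change 0.02 ± 0.0383 SE, limma adjusted p = 0.697). By library, 7 genes lay above and 6 below without overlap, as did 78.8% and 10.2% of all genes tested, and MT-ATP8 and MT-ND6 overlapped.

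Genes that share an mRNA or a boundary were compared within libraries. The ratio of MT-ND5 to MT-ND6 reads was 6.40, 6.30 and 6.19 in the knockout line and 14.95, 12.4 and 11.7 in parental cells (exact permutation p = 0.1). Per kilobase, the ratio of MT-ND4L to MT-ND4 was 0.411 ± 0.0197 in the knockout line and 0.501 ± 0.0211 in parental cells, again without overlap (SD, n = 3 each, exact permutation p = 0.1). The ratio of MT-ATP8 to MT-ATP6 was 0.580 ± 0.0171 in the knockout line and 0.603 ± 0.0118 in parental cells, and these groups overlapped (SD, n = 3 each, exact permutation p = 0.2).

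**Figure D3:**
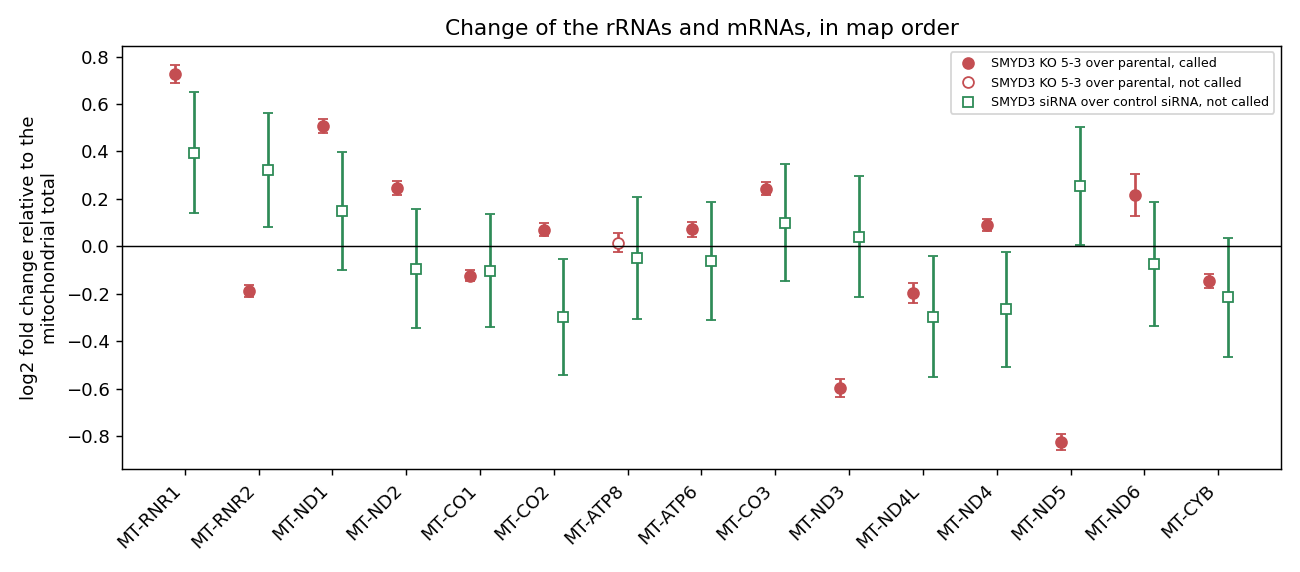
Log2 fold change of each rRNA and mRNA after division by the mitochondrial total of its library, with the SE of the fit as error bars and filled symbols for calls at an adjusted p below 0.05. In the knockout line MT-RNR1 and MT-ND1 lie highest, at 0.73 and 0.51, and MT-ND5 and MT-ND3 lowest, at -0.82 and -0.60. With the siRNA no rRNA or mRNA was called, at SEs of 0.239 to 0.262.

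With the SMYD3 siRNA, the mitochondrial share overlapped its control. Mitochondrial genes made up 5.73%, 5.94% and 6.78% of reads with the SMYD3 siRNA, against 6.63%, 7.35% and 10.2% with the control siRNA. The means were 6.15 ± 0.555% and 8.08 ± 1.91% (SD, n = 3 each), a difference of -1.93 percentage points (exact permutation p = 0.2). Within each replicate number the share was lower with the SMYD3 siRNA than with the control siRNA. Replicate 3 of the control siRNA was the highest library. Without it the control mean was 6.99%, the difference -0.843 percentage points and the exact permutation p 0.3, with 3 against 2 libraries. The tables were normalized apart and list different genes, so shares and levels are not compared between the knockout and siRNA tables.

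In the siRNA libraries the mRNAs separated between the groups, while the rRNAs and the tRNAs overlapped. The mRNAs took 4.57 ± 0.482% of reads with the SMYD3 siRNA and 6.43 ± 1.59% with the control siRNA, without overlap (SD, n = 3 each, exact permutation p = 0.1). The gap was narrow: the libraries held 4.09%, 4.56% and 5.05% with the SMYD3 siRNA, against 5.16%, 5.91% and 8.22% with the control siRNA. The 8.22% was replicate 3 of the control siRNA. The rRNAs took 1.58 ± 0.176% with the SMYD3 siRNA and 1.65 ± 0.326% with the control siRNA (exact permutation p = 0.8). The tRNAs, all together, had 27.8 ± 0.711 CPM with the SMYD3 siRNA and 23.5 ± 5.25 CPM with the control siRNA (exact permutation p = 0.4). Complex I mRNAs took 1.70 ± 0.153% with the SMYD3 siRNA and 2.35 ± 0.625% with the control siRNA, and complex IV mRNAs 2.48 ± 0.285% and 3.51 ± 0.821%.

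Fold changes of the siRNA comparison use edgeR's own scaling (TMM factors), so they differ from ratios of RPKM, which is per total reads. MT-RNR2 had a mean of 9416 RPKM with the SMYD3 siRNA and 9857 RPKM with the control siRNA, but a log2 fold change of 0.06. The median log2 fold change was -0.35 over the 13 mRNAs and -0.02 over the 18965 genes tested. Over the mRNAs and rRNAs together it was -0.33, and -0.05 without replicate 3 of the control siRNA. Scaling to the nuclear total moved the median of all genes by -0.16, and the rRNAs MT-RNR1 and MT-RNR2 then had fold changes of -0.02 and -0.10. Of the 37 genes 26 passed the filter on low counts: the 13 mRNAs, the 2 rRNAs and 11 tRNAs. In edgeR's quasi-likelihood test 4 were lower with the SMYD3 siRNA, all of them mRNAs, beside 24.4% of all genes tested. The other 3 that were called were tRNAs and were higher, beside 24.2% of all genes tested. By share of reads, 5 mRNAs (MT-CO1, MT-CO2, MT-ND4L, MT-ND4 and MT-CYB) lay below the control libraries without overlap, as did 38.1% of the genes tested. The count of 4 depended on single libraries: it was 0 without replicate 1 of the SMYD3 siRNA, where 2 had an unadjusted p below 0.05. It was 2 without replicate 2 of the SMYD3 siRNA, 1 without replicate 3 of the control siRNA and 8 without replicate 1 of the control siRNA. With the replicate number as a block it was 9, where MT-ND2, MT-CO1, MT-ATP8, MT-ATP6 and MT-ND6 were called as well (edgeR adjusted p of 0.00667 to 0.0193). The numbers were not taken to pair the libraries.

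Among the called mRNAs were 2 of complex I. MT-ND4L had 2407, 2140 and 2709 RPKM with the SMYD3 siRNA, against 3361, 3478 and 4813 RPKM with the control siRNA (log2 fold change -0.56 ± 0.137 SE, edgeR adjusted p = 0.00419). MT-ND4 had 4728, 5216 and 5867 RPKM with the SMYD3 siRNA, against 6464, 7659 and 10990 RPKM with the control siRNA (log2 fold change -0.54 ± 0.177 SE, edgeR adjusted p = 0.0224). The highest SMYD3 siRNA library lay under the lowest control library for both genes. The other 5 complex I mRNAs were not called, with log2 fold changes of -0.37 for MT-ND2, -0.35 for MT-ND6, -0.22 for MT-ND3, -0.12 for MT-ND1 and -0.02 for MT-ND5.

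MT-CYB had 1309, 1450 and 1436 RPKM with the SMYD3 siRNA, against 1783, 1979 and 2625 RPKM with the control siRNA (log2 fold change -0.48 ± 0.134 SE, edgeR adjusted p = 0.00847). MT-CO2 had 6195, 7348 and 8469 RPKM with the SMYD3 siRNA, against 9325, 10648 and 15728 RPKM with the control siRNA (log2 fold change -0.57 ± 0.196 SE, edgeR adjusted p = 0.0323). Neither pair of groups overlapped. With DESeq2 the calls of MT-CO2 (adjusted p = 0.116) and MT-ND4 (adjusted p = 0.106) were lost. MT-CO1 had a log2 fold change of -0.36 ± 0.156 SE and missed the threshold (edgeR adjusted p = 0.0682), but passed it with DESeq2 (adjusted p = 0.0169). MT-CO3 (-0.17), MT-ATP6 (-0.33), MT-ATP8 (-0.33), MT-RNR1 (0.14) and MT-RNR2 (0.06) were not called either.

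**Figure D4:**
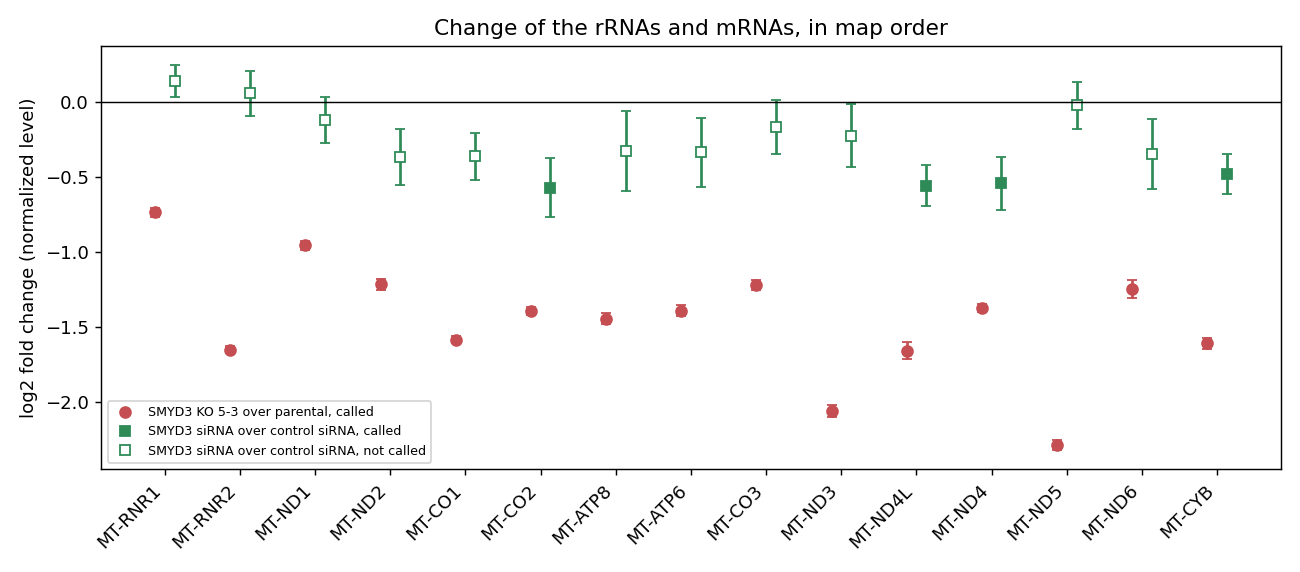
Log2 fold change of the normalized level of each rRNA and mRNA, in map order, with the SE of the fit as error bars and filled symbols for calls at an adjusted p below 0.05. All 15 values of the knockout line lie between -0.73 and -2.29; with the SMYD3 siRNA MT-CO2, MT-ND4L, MT-ND4 and MT-CYB were called, at -0.57 to -0.48.

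The tRNA genes had few reads in these poly(A)-selected libraries, and 3 (MT-TK, MT-TG and MT-TR) had none in all 6. Over the 6 siRNA-table libraries 9 of the 22 had 100 reads or more. The 8 minus-strand tRNA genes held 60.8% of all tRNA reads. Mature tRNAs are short and carry no poly(A) tail. Whether these reads came from mature tRNAs or from longer RNA was not tested.

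MT-TT was counted 357, 328 and 369 times with the SMYD3 siRNA, against 159, 138 and 321 times with the control siRNA. In RPKM it had 142, 126 and 118 with the SMYD3 siRNA, against 53.1, 64.5 and 89.9 with the control siRNA (log2 fold change 1.01 ± 0.161 SE, edgeR adjusted p = 0.000146). MT-TW was counted 64, 70 and 68 times with the SMYD3 siRNA, against 31, 34 and 63 times with the control siRNA (log2 fold change 0.88 ± 0.217 SE, edgeR adjusted p = 0.00375). The groups overlapped in raw counts for neither gene, and in RPKM for neither. MT-TA, on the minus strand, was counted 32, 38 and 39 times with the SMYD3 siRNA, against 20, 11 and 16 times with the control siRNA (log2 fold change 1.42 ± 0.254 SE, edgeR adjusted p = 0.000332). It had the fewest reads of the 3 and the largest change.

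The other 8 tested tRNAs were not called. Their log2 fold changes were 0.75 for MT-TD, 0.73 for MT-TI, 0.53 for MT-TF, 0.33 for MT-TY, 0.15 for MT-TE, 0.07 for MT-TS1, 0.01 for MT-TQ and -0.35 for MT-TP. By share of reads MT-TT, MT-TW, MT-TA and the untested MT-TV, each of whose libraries held only a few reads, lay above all control libraries, as did 19.2% of the genes tested. The calls of MT-TT, MT-TW and MT-TA were kept in each of the other fits of the normalized level.

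MT-TW follows MT-ND2 directly, and MT-TT follows MT-CYB, as the boundary sequences above show. These pairs were chosen after their values were seen, and the ratios are given without a test. The RPKM of MT-TT was 10.9%, 8.71% and 8.22% of that of MT-CYB with the SMYD3 siRNA, against 2.98%, 3.26% and 3.42% with the control siRNA. For MT-TW and MT-ND2 it was 1.62%, 1.496% and 1.10% with the SMYD3 siRNA, against 0.533%, 0.687% and 0.533% with the control siRNA. The tRNA part was higher in every SMYD3 siRNA library for both pairs.

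Relative to the mitochondrial total, 3 of 25 tested genes were higher with the SMYD3 siRNA and 0 lower in edgeR's test. Of the 18633 genes tested, 12.9% were higher and 3.89% lower, so the share of members that was higher was near that of all genes. The 3 were again MT-TA (1.65), MT-TT (1.31) and MT-TW (1.17), with edgeR adjusted p of 0.000467, 5.12e-05 and 0.00429. No gene was lower at an unadjusted p below 0.05, and DESeq2 called 0 lower as well. The fit shares its error between all genes, and nuclear genes carry the spread of the mitochondrial total on this scale. The SE was 0.239 to 0.262 for the mRNAs and rRNAs, so the lack of calls cannot show that their shares were unchanged. MT-ND4 made up 11.8 ± 0.377% of mitochondrial reads with the SMYD3 siRNA and 14.2 ± 0.694% with the control siRNA, without overlap (SD, n = 3 each). The call of MT-TW was lost without replicate 2 of the SMYD3 siRNA (log2 fold change 1.08, edgeR adjusted p = 0.082). By library, 12 of the 37 genes lay above the control libraries without overlap and 5 below. Of the 18965 genes that passed the filter on low counts, 26.8% and 7.26% did so. The 12 include MT-TV, which did not pass that filter. The mean mitochondrial share, the divisor here, was lower with the SMYD3 siRNA, which raises nuclear genes on this scale. MT-ND5 made up 6.34%, 6.09% and 5.87% of mitochondrial reads with the SMYD3 siRNA, against 4.78%, 5.40% and 5.16% with the control siRNA. MT-RNR2 made up 26.5%, 21.5% and 23.7% with the SMYD3 siRNA, against 20.7%, 18.3% and 18.5% with the control siRNA. Neither gene was called (log2 fold changes 0.25 and 0.32, edgeR adjusted p = 0.525 and 0.388). The ratio of MT-ND5 to MT-ND6 reads was 22.1 ± 2.87 with the SMYD3 siRNA and 17.5 ± 1.47 with the control siRNA, without overlap (SD, n = 3 each, exact permutation p = 0.1). The ratios of MT-RNR2 to MT-RNR1 (13.2 and 13.9), MT-ND4L to MT-ND4 (0.460 and 0.471 per kilobase) and MT-ATP8 to MT-ATP6 (0.780 and 0.768 per kilobase) overlapped between the SMYD3 siRNA and the control siRNA.

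Nuclear copies of mitochondrial genes can draw reads from them. MTATP6P1 on chromosome 1 (GRCh38, chr1:633696-634376) differs from MT-ATP6 at 10 of 681 bases, an identity of 98.5%, and its longest identical run is 141 bases. The stretch with the most differences is shown for both (MT-ATP6 at chrM:8647-8706, MTATP6P1 at chr1:633816-633875), with the differing bases in capitals.
MT-ATP6: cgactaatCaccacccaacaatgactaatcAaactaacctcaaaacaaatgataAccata
MTATP6P1: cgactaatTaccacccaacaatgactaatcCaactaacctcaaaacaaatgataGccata

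MTATP6P1 was counted 10.7 to 11.1 times per 100 MT-ATP6 reads in the knockout line and 10.4 to 11.4 times in parental cells. The figure was 12.2 to 12.6 with the SMYD3 siRNA, and with the control siRNA 11.3 to 12.4. In the knockout line 5 of 6 tested copies (83.3%) were lower than in parental cells, beside 42.5% of all genes tested. Among them were MTATP6P1 (log2 fold change -1.37), MTCO1P12 (-2.25) and MTND2P28 (-1.47). MTCO1P12 was counted 0.342 to 0.383 times per 100 MT-CO1 reads in the knockout line and 0.464 to 0.701 times in parental cells. For MTND2P28 it was 1.5 to 1.602 times per 100 MT-ND2 reads in the knockout line and 1.745 to 2.02 times in parental cells. In the siRNA comparison 1 of 12 tested copies (8.33%) was lower, beside 24.4% of all genes tested. It was MTND4P12 (log2 fold change -0.53, edgeR adjusted p = 0.0139). How reads that match both a gene and its copy were assigned is not given in the sources used here, so values of MT-ATP6, MT-CO1 and MT-ND2 and of their copies are uncertain to that extent.

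The nuclear genes of mitochondrial functions changed in both directions in the knockout line. Of 231 tested members of 9 lists, 116 were higher and 78 lower in the knockout line, with a median log2 fold change of 0.13. These are 50.2% and 33.8% of the members, beside 42.1% and 42.5% of all genes tested. The siRNA comparison had 20 higher and 107 lower, with a median of -0.20. These are 8.66% and 46.3%, beside 24.2% and 24.4% of all genes tested. The counts of the single lists below stand beside the same shares of all genes, and none was tested against them. In the knockout table the direction depended on the scaling: with reads scaled to the nuclear total 68 were higher and 133 lower, and over all genes the share of calls that were higher was 33.3% in place of 49.7%. In the siRNA table that share was 29.3% in place of 49.75%.

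Of 17 genes of mitochondrial transcription 8 were higher (47.1%) and 3 lower (17.6%) in the knockout line, so the share that was higher was near that of all genes. POLRMT, the mitochondrial RNA polymerase, had a log2 fold change of 0.32 in the knockout line and -0.35 with the SMYD3 siRNA (limma adjusted p = 0.002, edgeR adjusted p = 0.021). In the knockout line its call was lost when scaled to the nuclear reads (-0.05, limma adjusted p = 0.58) and with upper quartile factors (0.04, edgeR adjusted p = 0.673). The siRNA call was lost without replicate 1 of the SMYD3 siRNA (-0.19, edgeR adjusted p = 0.0896) and without replicate 2 of the control siRNA (-0.30, edgeR adjusted p = 0.0791). TFAM, which packages mitochondrial DNA and activates its promoters, was higher in both (0.90 and 0.29). TFB2M, which opens the promoter for the polymerase, had the largest change of the list in the knockout line (1.78). MTERF2, a family member that binds mitochondrial DNA, was lower there (-1.67). In the siRNA comparison 2 of 17 were higher and 5 lower, with the largest changes in MRPL12 (-0.70), which also binds the polymerase, and TFB1M (-0.46), an rRNA methyltransferase.

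Of 20 genes of mitochondrial DNA maintenance, 13 were higher and 4 lower in the knockout line, and 3 were higher and 9 lower with the SMYD3 siRNA. The replicative helicase TWNK was higher in the knockout line (1.88) and lower with the SMYD3 siRNA (-0.42). RNASEH1, which removes RNA from RNA-DNA hybrids, was higher in the knockout line (1.37). TK2 (-1.05) and DGUOK (-1.01), kinases that supply mitochondrial deoxynucleotides, were lower with the SMYD3 siRNA.

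The list of RNA processing, stability and decay had the highest median in the knockout line, 0.59, with 26 of 36 higher and 4 lower. When scaled to the nuclear reads 19 were higher and 10 lower. LRPPRC, which stabilizes mitochondrial mRNAs, was higher in the knockout line (1.17) and with the SMYD3 siRNA (0.27). Its partner SLIRP had a log2 fold change of 0.00 in the knockout line, which was not called, and was lower with the SMYD3 siRNA (-0.26). In the knockout line it was called lower when scaled to the nuclear reads (-0.36, limma adjusted p = 1.87e-06) and with upper quartile factors (-0.28, edgeR adjusted p = 1.25e-05). The siRNA call was lost without replicate 3 of the SMYD3 siRNA (edgeR adjusted p = 0.143) or of the control siRNA (edgeR adjusted p = 0.0974). The degradation enzymes PNPT1 (1.96 in the knockout line, 0.29 with the SMYD3 siRNA) and SUPV3L1 (0.99 and 0.21) were higher in both. MTPAP, the mitochondrial poly(A) polymerase, was called in neither (0.14 and -0.08). Scaled to the nuclear reads it was called lower in both, at -0.22 in the knockout line (limma adjusted p = 0.00492) and -0.24 with the SMYD3 siRNA (edgeR adjusted p = 0.0236). In the knockout line the main fit was near the threshold (limma adjusted p = 0.0523). It was called higher there without replicate 3 of that line (0.21, limma adjusted p = 0.00892) or replicate 2 of parental cells (0.18, limma adjusted p = 0.0257). The same held with the replicate number as a block (limma adjusted p = 0.0213) and with 10 added to each value in place of 1 (limma adjusted p = 0.0493). TBRG4, an RNA-binding protein of the FASTK family, was also higher in the knockout line (1.29). Under the SMYD3 siRNA 6 were higher and 12 lower, with the largest changes in PDE12 (-0.88), which removes A tails, and NSUN4 (0.73), an rRNA methyltransferase.

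Among 79 nuclear-encoded respiratory subunits 25 were higher and 43 lower in the knockout line, with a median of -0.28, and 5 were higher and 38 lower with the SMYD3 siRNA, with a median of -0.22. Complex IV leaned furthest in the knockout line, with 1 of 11 higher and 9 lower, among them COX5B (-1.02) and COX6C (-0.86). Under the siRNA 7 of 11 were lower, among them COX7C (-0.78) and COX8A (-0.51). For complex I 13 of 37 were higher and 19 lower in the knockout line, where NDUFB1 (-1.74) and NDUFV2 (-1.38) changed most. The siRNA comparison had 17 lower and 1 higher, with NDUFB10 (-0.73) and NDUFB5 (-0.70) changing most.

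In complex V 4 of 18 were higher and 11 lower in the knockout line, and the largest changes went opposite ways, in ATP5MJ (-1.61) and ATP5F1B (1.23), a catalytic subunit. With the SMYD3 siRNA 2 were higher and 9 lower, among them ATP5ME (-0.51) and ATP5MF (-0.48). In complex III 5 of 9 were higher and 3 lower in the knockout line, among them UQCRFS1 (0.89), the iron-sulfur subunit, and UQCRB (-0.71). In the siRNA libraries 4 of 9 were lower, among them UQCRQ (-0.36) and UQCRB (-0.35). Complex II has no mitochondrially encoded subunit, and 2 of its 4 subunits were higher in each comparison, SDHB (0.62) and SDHA (0.57) in the knockout line and SDHC (0.30) and SDHA (0.27) with the SMYD3 siRNA. Scaled to the nuclear total, the siRNA calls of SDHA, SDHC, TFAM, LRPPRC, PNPT1 and SUPV3L1 were lost, with log2 fold changes of 0.05 to 0.14 and edgeR adjusted p of 0.154 to 0.61.

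Of 79 proteins of the mitochondrial ribosome, which carries the rRNAs, 44 were higher and 24 lower in the knockout line. Scaled to the nuclear reads, 24 were higher and 45 lower. MRPL37 (1.71) and MRPS2 (1.62) changed most. In the siRNA comparison 4 were higher and 43 lower, with the largest called changes in MRPS6 (1.02) and MRPL18 (-0.87).

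**Figure D5:**
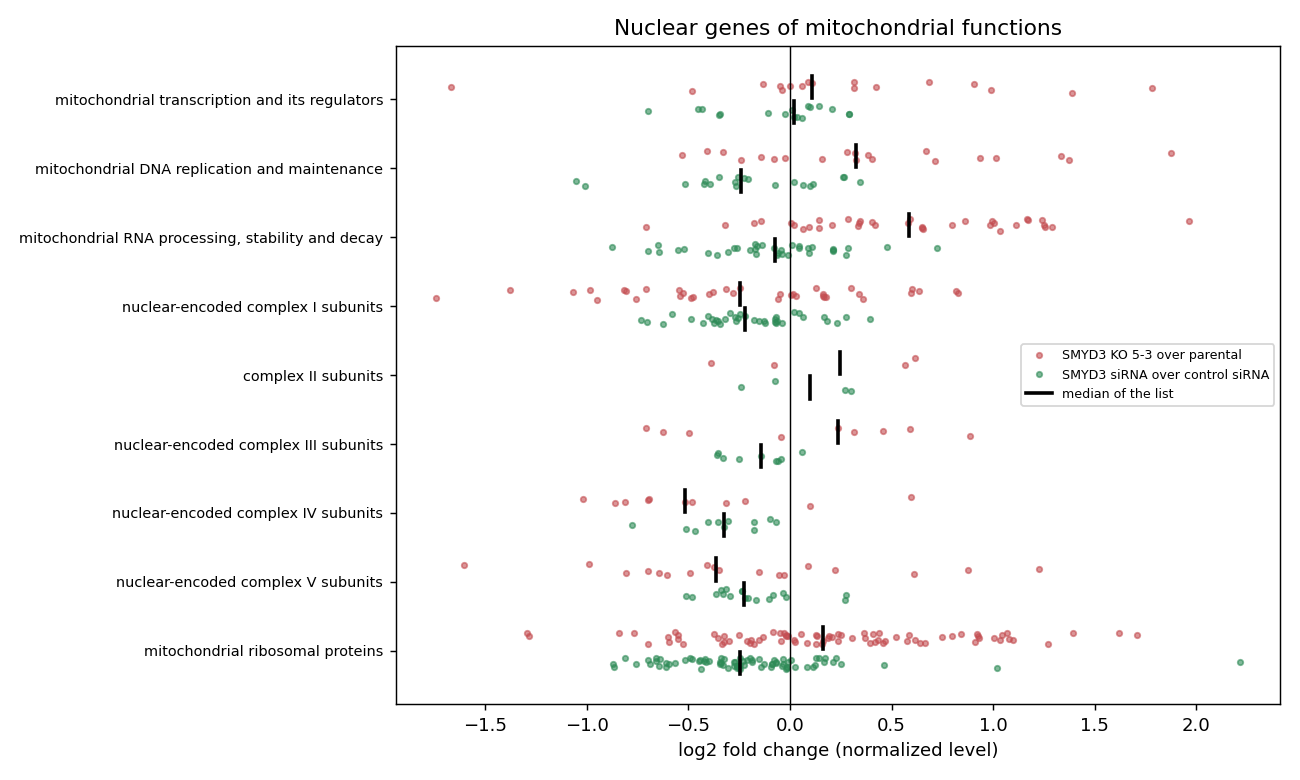
Log2 fold change of the normalized level of the nuclear genes of each list (points, 1 per tested gene) with the median of the list as a black bar. In the knockout line the medians run from -0.52 for complex IV to 0.59 for RNA processing; with the SMYD3 siRNA they run from -0.32 for complex IV to 0.10 for complex II.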

How the data were processed

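RNA of the 12 libraries was sequenced after poly(A) selection with a stranded kit, per the labels' protocols. The submitters' processing notes name hg38, Bowtie and bcl2fastq without versions. For the counting tool, its strand setting and the annotation, nothing is given in the sources used here. Raw counts per gene make up the siRNA table as deposited by the authors. The knockout table, as deposited by the authors, holds a signal: gene counts divided by 1 factor per library. Dividing by the smallest step gave whole reads for 100% of values within 0.01; shares, CPM and RPKM use these reads. Lines without a symbol in the siRNA table (23588) were kept under their Ensembl identifiers, and 24 symbols of the knockout table that had been turned into dates were restored by identifier. Intervals and floors from counts are not given, and replicate libraries differed by more than sampling noise.

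Counts were tested with edgeR 4.0.16 (filterByExpr, TMM factors, robust quasi-likelihood F-test), and the knockout signal with limma 3.58.1 (trend, robust) on log2(value + 1), keeping genes whose value reached 10 in 3 libraries or more. Each table was fitted alone on all its genes, with Benjamini-Hochberg adjustment and a threshold of 0.05. Relative values were divided by the mitochondrial total. Single values per library were compared by exact two-sided permutation tests. Alternatives were edgeR and DESeq2 1.42.0 on the reads, other pseudocounts (0.1 and 10), no filter, other scalings, the replicate number as a block and leaving out each library. edgeR on the recovered knockout reads called 7011 genes higher and 7471 lower, against 7136 and 7211 with limma. Positions and sequences are from GRCh38 with GENCODE release 29, with Python 3.11.15 and R 4.3.3. The genes and lists were chosen with earlier results of these data known. The text names every mRNA and rRNA, the tested tRNAs, 8 chosen nuclear genes, the 2 called members per list with the largest change, and the copies with the most reads. Scripts were checked on simulated data in which few genes changed, and by more than the mRNAs did with the SMYD3 siRNA. That check does not measure the error of the fits here. The antisense oligonucleotide and UHRF1 siRNA tables list 0 reads for each of the 37 genes and were not used for them.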

Additional observations from a re-analysis of the deposited data

Results flagged for a closer look

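For 4 genes every library of one comparison moved opposite to every library of the other, as a share of mitochondrial reads. The log2 fold changes were -0.82 in the knockout line and 0.25 with the SMYD3 siRNA for MT-ND5, -0.19 and 0.32 for MT-RNR2, 0.07 and -0.30 for MT-CO2, and 0.09 and -0.27 for MT-ND4. The difference between the comparisons was not tested, since they have separate controls and their tables list different genes. Another 5 genes (MT-RNR1, MT-ND1, MT-CO1, MT-ND4L and MT-CYB) separated the same way in both comparisons. Of the 13283 genes tested in both, 7.32% separated in opposite directions and 25.8% in the same direction. None of the 4 siRNA values was called in edgeR's test, where their SEs were 0.24 to 0.247.

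In the tables that list 0 reads for the mitochondrial genes, the nuclear copy MTCO1P12 still had reads and was higher in each treated library than in any control library. The lowest level was 18.2 CPM with the SMYD3 antisense oligonucleotide, and the highest was 17.6 CPM with PBS. With the UHRF1 siRNA the lowest was 49.7 CPM, and with its control siRNA the highest was 49.2 CPM. Among the copies with a mean of 20 reads or more per library, 1 of 7 lay above and 2 below without overlap with the antisense oligonucleotide. With the UHRF1 siRNA 1 of 9 lay above and 3 below. MTATP6P1, the copy with the most reads, had 161 to 169 CPM with the antisense oligonucleotide and 176 to 181 CPM with PBS, and 256 to 275 CPM with the UHRF1 siRNA and 347 to 504 CPM with its control siRNA. MTND2P28 had 111 to 119 CPM with the UHRF1 siRNA and 161 to 250 CPM with its control siRNA, and the sum of all copies was 423 to 461 CPM and 562 to 786 CPM. With the antisense oligonucleotide MTND2P28 overlapped its control, at 42.1 to 46.5 CPM against 37.2 to 45.7 CPM with PBS. Among genes with a mean of 20 reads or more per library, 22.5% lay above and 41.9% below without overlap with the antisense oligonucleotide (2 libraries against 2), and 31.5% above and 40.8% below with the UHRF1 siRNA (3 against 3). None of these differences was tested.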

How the results depend on the processing

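In the knockout line the 15 lower genes stayed at 15 in every fit, and the difference in share lay between -10.62 and -10.23 percentage points with 1 library left out and was -9.39 without the 2 rRNAs. The genes higher relative to the mitochondrial total were 5 with DESeq2 and 5 to 8 with 1 library left out; the lower ones stayed at 6. With the SMYD3 siRNA the share difference lay between -2.65 and -0.843 with 1 library left out. The lower genes were 7 without the filter and 0 to 8 with 1 library left out, the higher genes 3 to 6, and those higher relative to the total 2 to 5, while 0 were lower. In the nuclear lists of the knockout line 133 were lower and 68 higher when scaled to the nuclear reads, and 121 lower with upper quartile factors; 75 to 77 were lower and 114 to 117 higher with 1 library left out. With the SMYD3 siRNA 4 were higher when scaled to the nuclear reads, and 81 to 100 were lower and 11 to 23 higher with 1 library left out. SMYD3 lay between -1.93 and -1.65 in the knockout line and between -2.49 and -2.33 with the siRNA. The sign of the log2 fold change turned in the knockout line for SLIRP (-0.36 scaled to the nuclear reads, -0.28 with upper quartile factors). It also turned for MTPAP (-0.22) and POLRMT (-0.0486), both scaled to the nuclear reads. SLIRP and MTPAP were not called in the main fit, and POLRMT was no longer called (limma adjusted p = 0.58). For all of these the cause was not tested. With the replicate number as a block, 9 genes were lower and 3 higher with the SMYD3 siRNA, and 7 higher relative to the total; in the knockout line 15 were lower, and relative to the total 8 were higher and 6 lower. Same-numbered libraries correlated at -0.088 to 0.048 in the knockout table and at -0.014 to 0.233 in the siRNA table, and not every library correlated best with its own number, so the numbers were not taken as pairs. Of the 22 tRNA genes 11 had too few reads to be tested.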
